A study of Mus musculus with 9 samples.

Results

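The T-box genes encode transcription factors that share one DNA-binding domain, and the members followed here were Tbx1, Tbx2, Tbx3, Tbx4, Tbx5, Tbx6, Tbx15, Tbx18 and Tbx20. They were taken by name, 9 of the 22367 protein-coding genes of the mm9 annotation. The rule used no measured value, but earlier results of these data were known when the members were chosen. Around each gene a window was drawn that ran from 50 kb before to 50 kb after the gene body, and every ATAC-seq peak whose midpoint lay in it was counted. ATAC-seq (assay for transposase-accessible chromatin) inserts sequencing adapters into open DNA, and a peak is a stretch where insertions pile up, as called by the study in each library separately. A peak within 1 kb of an annotated transcription start site (TSS) of the member is called an own-promoter peak, one within 1 kb of the TSS of any other gene an other-gene promoter peak, and one more than 1 kb from every TSS a distal peak.

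The 9 libraries came from pharyngeal tissue of Swiss Webster mouse embryos at embryonic day 9.5, and all embryos carried a Rosa26-GFPflox reporter, so that cells in which Cre had been active were green and could be sorted. The Tbx1-Cre Ctrl group (Tbx1Cre;Rosa26-GFPflox/+), the Tbx1-Cre cKO group (Tbx1Cre/flox;Rosa26-GFPflox/+) and the Mesp1-Cre Ctrl group (Mesp1Cre;Rosa26-GFPflox/+) had 3 libraries each, made from pooled embryos. Both Tbx1-Cre groups carry Cre in 1 allele of Tbx1 itself. The Ctrl embryos keep the other allele, whereas in the cKO embryos it is floxed, so the cells sorted there had Tbx1 inactivated from the time Cre was expressed. Tbx1-Cre labels mesoderm together with endoderm and ectoderm of the pharyngeal apparatus, while Mesp1-Cre labels mesoderm. The labels include the heart in the tissue and the study's methods for this assay leave it out, so cardiac cells may or may not be present.

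The peak lists differed in length before any T-box gene was considered. They held 43298 to 49490 peaks in Tbx1-Cre Ctrl, 19772 to 29251 in cKO and 25485 to 42650 in Mesp1-Cre Ctrl, with Mesp1-Cre Ctrl replicate 1 the longest of its group. Distal peaks made up 63.0 to 65.0% of the lists in Tbx1-Cre Ctrl, 36.3 to 49.8% in cKO and 46.1 to 61.1% in Mesp1-Cre Ctrl. The lists give no height or read number for a peak, so the read depth of the libraries is unknown here, and its part in these differences was not tested. Among cell type markers, the distal peaks in the windows of 8 cardiopharyngeal mesoderm genes summed to 20 to 31 in Tbx1-Cre Ctrl, 11 to 17 in cKO and 16 to 27 in Mesp1-Cre Ctrl. Those of 8 epithelial genes summed to 12 to 22, 5 to 10 and 3 to 15, those of 5 endothelial and blood genes to 12 to 21, 4 to 5 and 9 to 19, and those of 3 neural crest genes to 3 to 9, 1 to 3 and 1 to 2. At the promoters of the mesoderm genes the libraries had 7 to 10, 3 to 5 and 4 to 8 peaks in the same order of groups, and at those of the epithelial genes 3 to 6, 0 to 1 and 1 to 3. Among defining mesoderm factors, Isl1 had a promoter peak in 9 of the 9 libraries, Gata4 in all of Tbx1-Cre Ctrl, none of cKO and 2 of the 3 Mesp1-Cre Ctrl libraries, and Nkx2-5 in 1 of the 9. Promoters of the endothelial and blood genes had 1 to 2 peaks in Tbx1-Cre Ctrl, 2 in each cKO library and 1 to 2 in Mesp1-Cre Ctrl. Those of the neural crest genes had 1 to 2, 0 to 1 and 0 to 1. Among markers of other cell types, Nkx2-1, Pecam1, Gata1, Cdh5 and Sox10 had no promoter peak in any library. Kdr had 1 or 2 in every library, and the rest, Tal1, Grhl2 and Tfap2a among them, had peaks in some libraries. With 1 list per library, fewer open sites per cell and fewer cells with the site open cannot be told apart.

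T-box proteins bind a short half-site, AGGTGTGA, and act as activators or repressors. In the head and trunk of the early embryo they divide the mesoderm into territories: Tbx1 is the central gene of the pharyngeal apparatus, Tbx5 and Tbx20 drive heart formation, Tbx2 and Tbx3 repress the chamber programme in parts of the heart, Tbx4 and Tbx5 are known from the hindlimb and the forelimb, Tbx6 from the presomitic mesoderm, and Tbx15 and Tbx18 from mesenchyme of the face, limb and body wall and, for Tbx18, the epicardium. By sequence Tbx1, Tbx15, Tbx18 and Tbx20 belong to one subfamily and Tbx2, Tbx3, Tbx4 and Tbx5 to another.

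The sequences on which most of the account below turns are shown here, read from the mm9 genome, plus strand, 300 bases each. Capitals mark the part that lay inside a peak in each of the libraries numbered behind the name, and lower case the flanks. A piece of the Tbx1 promoter and the 2 distal regions seen in each Tbx1-Cre Ctrl library and absent from cKO come first, followed by a wide region upstream of Tbx1 and 2 regions near Tbx18.
Tbx1 promoter, chr16:18588708-18589007, shared by the 3 Ctrl libraries: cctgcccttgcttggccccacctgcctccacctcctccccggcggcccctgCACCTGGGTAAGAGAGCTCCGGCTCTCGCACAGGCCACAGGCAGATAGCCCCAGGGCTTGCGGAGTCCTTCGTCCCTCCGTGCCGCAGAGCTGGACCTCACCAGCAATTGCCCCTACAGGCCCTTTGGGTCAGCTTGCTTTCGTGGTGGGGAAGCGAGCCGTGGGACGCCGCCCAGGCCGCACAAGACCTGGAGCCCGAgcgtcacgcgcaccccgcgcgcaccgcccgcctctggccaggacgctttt
Tbx15 intron, chr3:99116062-99116361, shared by 3 libraries: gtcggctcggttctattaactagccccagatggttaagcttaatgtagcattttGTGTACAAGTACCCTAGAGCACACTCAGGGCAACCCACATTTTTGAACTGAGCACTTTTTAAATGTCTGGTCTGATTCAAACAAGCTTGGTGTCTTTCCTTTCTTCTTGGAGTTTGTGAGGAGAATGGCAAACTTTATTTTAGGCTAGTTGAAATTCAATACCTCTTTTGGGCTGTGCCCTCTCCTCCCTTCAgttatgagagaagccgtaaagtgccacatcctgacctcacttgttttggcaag
Tbx6 window, intergenic, chr7:133898563-133898862, shared by 5 libraries: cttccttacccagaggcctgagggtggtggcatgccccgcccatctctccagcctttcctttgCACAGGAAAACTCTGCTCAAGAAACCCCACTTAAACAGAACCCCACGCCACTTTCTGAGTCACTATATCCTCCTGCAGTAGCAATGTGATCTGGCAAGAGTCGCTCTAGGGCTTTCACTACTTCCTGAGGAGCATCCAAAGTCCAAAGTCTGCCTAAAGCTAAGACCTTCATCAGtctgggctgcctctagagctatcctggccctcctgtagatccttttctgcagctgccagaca
Tbx1 upstream, intergenic, chr16:18601755-18602054, shared by 7 libraries: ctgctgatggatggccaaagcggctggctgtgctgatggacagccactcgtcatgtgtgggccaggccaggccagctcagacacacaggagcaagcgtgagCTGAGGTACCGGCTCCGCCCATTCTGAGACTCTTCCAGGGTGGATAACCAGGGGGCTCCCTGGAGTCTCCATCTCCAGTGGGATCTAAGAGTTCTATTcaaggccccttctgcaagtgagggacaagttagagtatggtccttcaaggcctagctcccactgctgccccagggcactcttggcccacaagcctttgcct
Tbx18 downstream, intergenic, chr9:87577293-87577592, shared by 6 libraries: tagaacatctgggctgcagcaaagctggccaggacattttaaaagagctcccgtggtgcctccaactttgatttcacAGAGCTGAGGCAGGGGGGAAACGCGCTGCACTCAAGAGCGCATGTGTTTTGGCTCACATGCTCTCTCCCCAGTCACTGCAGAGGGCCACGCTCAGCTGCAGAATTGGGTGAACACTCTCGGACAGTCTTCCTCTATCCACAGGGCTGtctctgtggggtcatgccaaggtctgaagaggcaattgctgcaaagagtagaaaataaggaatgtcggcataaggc
Tbx18 upstream, intergenic, chr9:87635376-87635675, shared by 8 libraries: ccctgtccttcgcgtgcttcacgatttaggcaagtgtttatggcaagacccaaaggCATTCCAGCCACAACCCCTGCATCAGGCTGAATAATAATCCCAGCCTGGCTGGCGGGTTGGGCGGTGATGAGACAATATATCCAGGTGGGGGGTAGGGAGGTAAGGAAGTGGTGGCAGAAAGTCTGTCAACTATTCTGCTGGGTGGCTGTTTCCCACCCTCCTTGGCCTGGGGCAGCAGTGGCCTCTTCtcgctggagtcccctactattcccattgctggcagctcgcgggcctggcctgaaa
None of these 6 stretches held the core GGTGTG on either strand. In all, 57 distal regions (peaks of any library merged where they overlapped by at least 1 bp) lay in the windows, and the full half-site AGGTGTGA, which contains that core, was found in 0 of them in the 300 bases around the centre, compared with 1.05% of 54273 distal regions genome-wide. The core alone was in 9 of the 57, or 15.8%, compared with 17.8% of the 54273. The letters were searched on both strands, and a missing match says nothing about binding by a T-box factor.

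Across the 9 windows, distal peaks were fewer in the cKO than in the Tbx1-Cre Ctrl libraries, and they stood at about the same share of the Ctrl number as distal peaks of the whole lists. The windows together held 41, 29 and 32 distal peaks in Tbx1-Cre Ctrl, 18, 13 and 7 in cKO and 31, 16 and 20 in Mesp1-Cre Ctrl, each peak counted once. The cKO and Ctrl values did not overlap, while the Mesp1-Cre values overlapped with those of both Tbx1-Cre groups. The means were 34.0 ± 6.25, 12.7 ± 5.51 and 22.3 ± 7.77 (SD, n = 3 each), a difference of -21.3 for cKO against Ctrl (p = 0.1, exact permutation test, two-sided) and of -11.7 for Mesp1-Cre Ctrl against Tbx1-Cre Ctrl (p = 0.2, same exact test), or -16 without the long list of Mesp1-Cre Ctrl replicate 1. Between cKO and Mesp1-Cre Ctrl the difference was -9.67 (p = 0.2, exact permutation test). With 3 libraries against 3 there are 20 relabellings and 0.1 is the smallest p this test can give, so no comparison here could pass 0.05. The cKO mean was 37.3% of the Ctrl mean in the windows and 35.5% for all distal peaks, and the Mesp1-Cre mean was 65.7% and 59.7% of it. Per 10000 distal peaks of its list, the windows held 11.4 ± 1.41 peaks for Tbx1-Cre Ctrl, 11.7 ± 1.70 for cKO and 12.8 ± 0.864 for the Mesp1-Cre libraries (SD, n = 3; p = 1 and p = 0.3, exact permutation test). When each list was cut to its 19772 widest peaks, the windows held 8, 7 and 6 distal peaks in Ctrl, 7, 8 and 7 in cKO and 6, 8 and 8 in Mesp1-Cre Ctrl, and the groups overlapped, with no member lower in every cKO library (2.27% of genes).

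**Figure D1:**
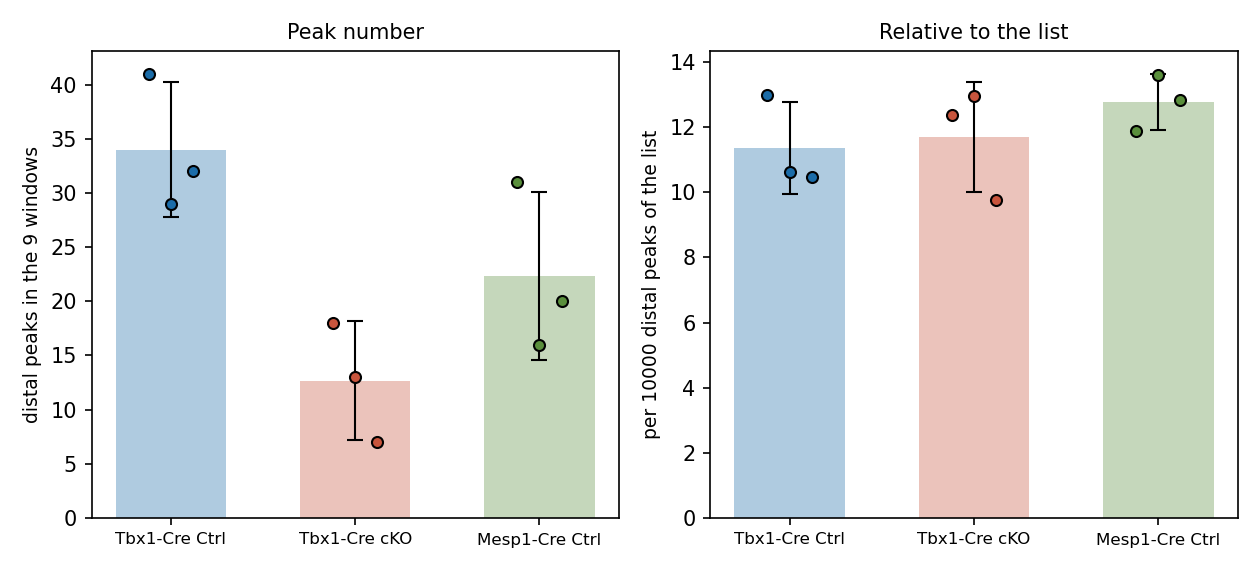
Distal peaks in the 9 T-box windows for each library (points), with the group mean (bar) and SD (error bar). Left, number of peaks, where the cKO libraries (7 to 18) lie below the Ctrl libraries (29 to 41). Right, the same per 10000 distal peaks of each list, where the 3 groups overlap.

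Own-promoter peaks of the 9 genes numbered 9, 8 and 9 in Tbx1-Cre Ctrl, 6, 7 and 4 in cKO and 10, 7 and 8 in Mesp1-Cre Ctrl. A peak there in all 9 libraries was found at 3 of the 9 members (33.3%), compared with 49.2% of all genes. The cKO libraries were lower than the Ctrl libraries by 3 peaks on average (p = 0.1, exact permutation test), at 65.4% of the Ctrl mean compared with 82.0% for promoter peaks of the whole lists. Per 10000 peaks of its list the direction was opposite, with 0.468 more in cKO, and with equal numbers of widest peaks the difference was -0.333 (p = 1, exact permutation test). Mesp1-Cre Ctrl differed from Tbx1-Cre Ctrl by -0.333 peaks (p = 1, same exact test).

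The median T-box window held more distal peaks than the median window in both control groups, and in cKO the medians were equal. Averaged over replicates, the median member had 4 distal peaks for Tbx1-Cre Ctrl, 0.333 for cKO and 2 for the Mesp1-Cre line, compared with 1.33, 0.333 and 1 for all 22367 genes, whose windows differ in length. In cKO the averages were 4.67 at Tbx1, 4.33 at Tbx18, 2.33 at Tbx4, 2 at Tbx2 and 0.333 or less at the other members. The share of all distal peaks that lay in the windows was 11.4 per 10000 for Tbx1-Cre Ctrl and 11.7 for cKO, as above. The cKO average was below that of Ctrl at 9 of the 9 members and at 72.1% of all genes. Fewer distal peaks in every cKO than in every Ctrl library were found at 2 of the 9 members, Tbx1 and Tbx4, compared with 25.6% of the 17837 genes with a distal peak in these libraries, so the share among members was close to the background. The call of Tbx1 was lost with windows of 10 kb, and that of Tbx4 with windows of 100 kb, with the widest 75% of peaks and with distal set beyond 2.5 kb. Both were lost with equal numbers of widest peaks and per 10000 peaks. No member had more distal peaks in every cKO than in every Ctrl library (0.14% of genes). Nor did any have more in every Mesp1-Cre Ctrl than in every Tbx1-Cre Ctrl library (0.394%, and 3.59% with equal numbers of widest peaks).

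**Figure D2:**
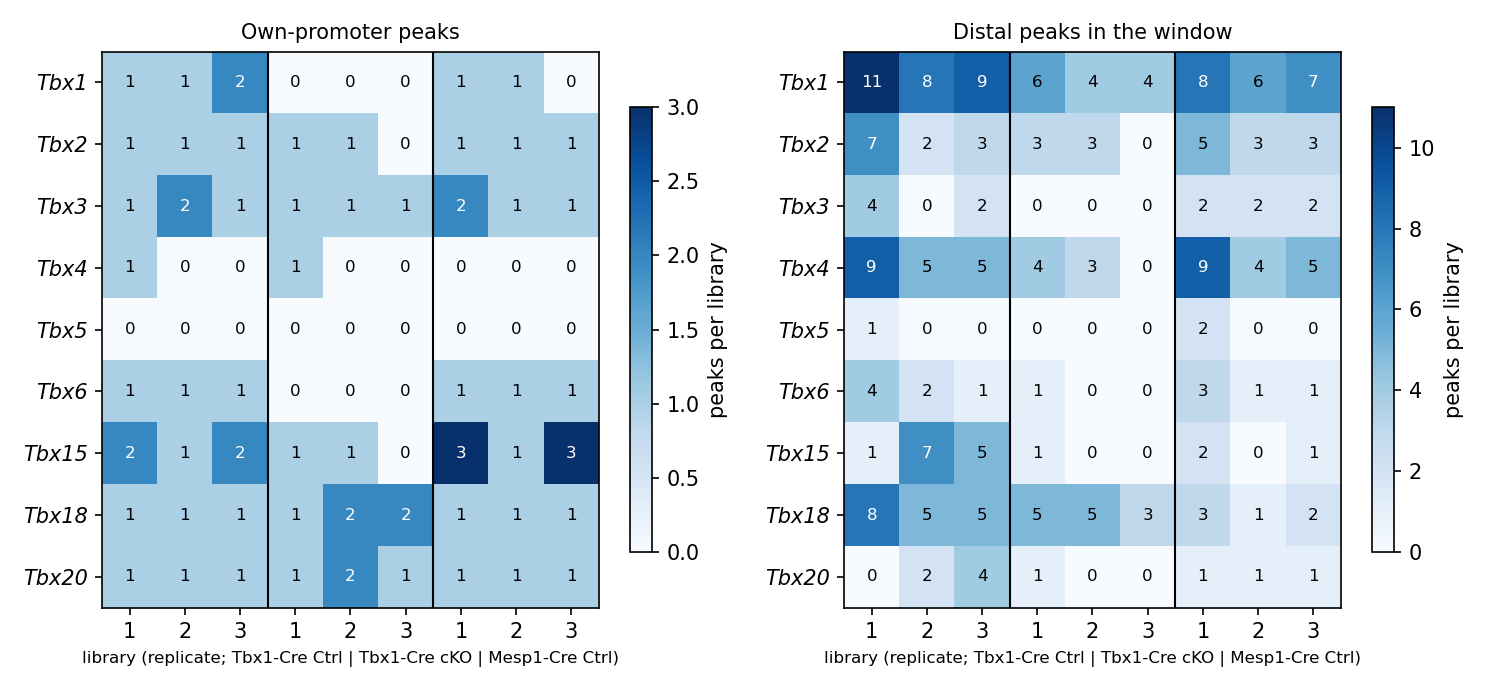
Number of own-promoter peaks (left) and distal peaks (right) of each T-box gene in each of the 9 libraries, columns 1 to 3 within each group being replicates. Tbx1 and Tbx6 have no own-promoter peak in the 3 cKO libraries, Tbx5 has none in any library, and Tbx18 keeps 3 to 5 distal peaks in cKO with 1 to 3 in Mesp1-Cre Ctrl.

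Tbx1 (chr16:18581806-18588113, minus strand, ENSMUSG00000009097.8) had the most distal peaks of the members in its window, which also holds Gnb1l, Gp1bb and Sept5. They numbered 11, 8 and 9 in Tbx1-Cre Ctrl, 6, 4 and 4 in cKO and 8, 6 and 7 in Mesp1-Cre Ctrl, so that the cKO values lay below those of Tbx1-Cre Ctrl and met those of Mesp1-Cre Ctrl at 6. Its promoter held 1, 1 and 2 peaks in Tbx1-Cre Ctrl, 0 in each cKO library and 1, 1 and 0 in Mesp1-Cre Ctrl. Each Tbx1-Cre Ctrl library had a peak over the 199 bp at chr16:18588759-18588957, the capitals of the first sequence above. The peaks of Mesp1-Cre Ctrl replicates 1 and 2 lay nearer the start, at chr16:18588165-18588558 and chr16:18588163-18588467, and did not reach that piece. The other peak of Ctrl replicate 3, chr16:18587984-18588459, lay over the same stretch as these. The peak of Ctrl replicate 1, chr16:18588317-18588957, overlapped them too, and these 4 libraries shared chr16:18588317-18588459. Tbx1 is the gene whose allele is Cre in both Tbx1-Cre groups and floxed in cKO, and its sequence at this locus therefore differs between the groups compared.

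The widest distal region of the Tbx1 window lay 14.1 kb upstream of the gene, in intergenic DNA at chr16:18601410-18602983. Widths are given per library and summed where it had more than 1 peak in a region. They were 1402, 1426 and 1321 bp in Tbx1-Cre Ctrl, 273 bp in cKO replicate 1 with no peak in the other cKO libraries, and 267, 384 and 263 bp in Mesp1-Cre Ctrl. The Tbx1-Cre Ctrl libraries had separate peaks here, of 779 and 623, 738 and 688, and 685 and 636 bp in replicate order. The Mesp1-Cre Ctrl and cKO peaks overlapped only the one nearer the gene. No cKO or Mesp1-Cre Ctrl peak lay over the farther one, chr16:18602360-18602982 in Ctrl replicate 1. The region was chosen for its width in Ctrl after the values were seen, so no test is given. Of the 13 distal regions present in all 3 Ctrl libraries, 2 were at least 1000 bp in each, this one and one near Tbx18, compared with 1.73% of 15391 such regions genome-wide. The limit of 1000 bp was not planned beforehand and applies to summed widths, so these shares are description only and show no enrichment. Among the regions of this window, 3 were present in all 9 libraries and all 3 lay in introns of the neighbour Gnb1l, which encodes a WD-repeat protein. The widest of them, chr16:18551521-18552253, measured 693, 718 and 612 bp in Tbx1-Cre Ctrl, 554, 522 and 286 bp in cKO and 562, 409 and 536 bp in Mesp1-Cre Ctrl. The mean width differed from that of Tbx1-Cre Ctrl by -220 bp in cKO and by -172 bp in the Mesp1-Cre line (p = 0.1 each, exact permutation test). At chr16:18533124-18533660 these differences were -99.7 and -91 bp (p = 0.2 and 0.5, same exact test). At chr16:18555325-18555910 they were 48.3 and -53 bp (p = 0.8 and 0.3, same exact test), so cKO was wider there on average. Of the 3157 distal regions present in all 9 libraries genome-wide, 52.5% were narrower in every cKO and 31.1% in every Mesp1-Cre Ctrl library than in every Tbx1-Cre Ctrl library. Among the 4 such regions of the T-box windows, 2 were narrower in every cKO library and 2 in every Mesp1-Cre Ctrl library.

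Tbx18 (chr9:87597635-87626095, minus strand, ENSMUSG00000032419.7) kept the largest share of its distal peaks in cKO among the members and differed between the 2 Cre lines. It had 8, 5 and 5 distal peaks in Tbx1-Cre Ctrl, 5, 5 and 3 in cKO and 3, 1 and 2 in Mesp1-Cre Ctrl. It was the 1 member of 9 with fewer in every Mesp1-Cre Ctrl than in every Tbx1-Cre Ctrl library, compared with 11.2% of 18285 genes, but with windows of 100 kb on each side Tbx18 was not called and Tbx1 was. With equal numbers of widest peaks it had 2, 3 and 3, then 3, 3 and 3, then 1 in each Mesp1-Cre Ctrl library, and was again the 1 member lower in the latter (3.63% of genes). Between cKO and Mesp1-Cre Ctrl the full lists touched at 3, and no member was above in every cKO library (0.323% of genes). With equal numbers of widest peaks Tbx18 was, as were 2.33% of genes.

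Beyond the far end of Tbx18, 2 intergenic regions had a peak in every Tbx1-Cre Ctrl and in no Mesp1-Cre Ctrl library, and they were picked after their values were seen. At chr9:87577004-87578387, 48.4 kb downstream of the start, the peaks were 685, 638 and 1306 bp wide in Tbx1-Cre Ctrl and 252, 365 and 382 bp in cKO, with no peak in any Mesp1-Cre Ctrl library. It was the 1 region of the 57 found in all 6 Tbx1-Cre libraries and no Mesp1-Cre Ctrl library, a pattern of 0.295% of all 54275 distal regions. At chr9:87596876-87597581, 28.9 kb downstream and just beyond the end of the gene, the widths were 471, 671 and 704 bp in Tbx1-Cre Ctrl, 346 and 217 bp in 2 of the 3 cKO libraries, and again there was no peak in Mesp1-Cre Ctrl. A region 9.01 kb upstream, chr9:87634214-87635991, was present in all 9 libraries. It measured 1421, 1201 and 1394 bp in Tbx1-Cre Ctrl, 783, 541 and 852 bp in cKO and 1003, 549 and 609 bp in Mesp1-Cre Ctrl, a mean difference from Tbx1-Cre Ctrl of -613 and -618 bp (p = 0.1 each, exact permutation test), patterns shared by 52.5% and 31.1% of regions as above. The promoter had a peak in every library.

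**Figure D3:**
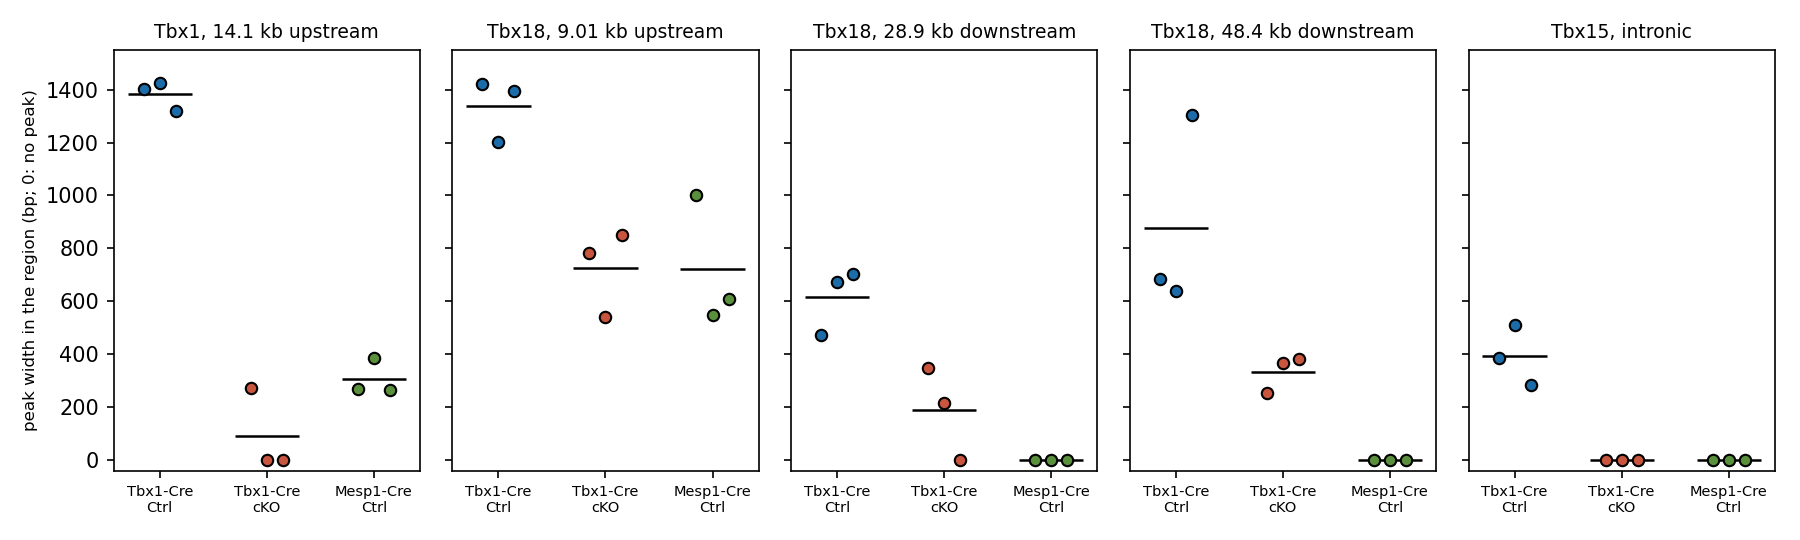
Width in bp of the peak in 5 distal regions near Tbx1, Tbx18 and Tbx15 for each library (points) with the group mean (line), 0 meaning no peak. The region upstream of Tbx1 is 1321 bp or wider in the 3 Ctrl libraries and at most 384 bp in the other 6, and both downstream regions of Tbx18 are at 0 in the 3 Mesp1-Cre Ctrl libraries.

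Tbx15 (chr3:99044304-99158182, plus strand, ENSMUSG00000027868.5), the closest relative of Tbx18, had 1, 7 and 5 distal peaks in Tbx1-Cre Ctrl, 1, 0 and 0 in cKO and 2, 0 and 1 in Mesp1-Cre Ctrl. Ctrl replicate 1 stood apart with its 1 peak, and without that library every cKO and every Mesp1-Cre value was below the rest of Ctrl. Without it, 4 members were lower in every cKO library (Tbx1, Tbx4, Tbx15 and Tbx20). In every Mesp1-Cre Ctrl library 3 were lower (Tbx15, Tbx18 and Tbx20). The share of all genes was not counted without that library, so this separation is description only. The intronic region chr3:99116026-99116591 had a peak in all 3 Tbx1-Cre Ctrl libraries (384, 510 and 283 bp wide) and none in cKO or in Mesp1-Cre Ctrl. It was the one merged distal region of the 9 windows with this pattern. By single peaks, the farther Ctrl peak upstream of Tbx1 showed it too, being merged with its neighbour. The Tbx15 region lay 71.7 to 72.3 kb inside the gene. Its promoters, the gene having several starts, held 2, 1 and 2 peaks in Tbx1-Cre Ctrl, 1, 1 and 0 in cKO and 3, 1 and 3 in Mesp1-Cre Ctrl.

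Tbx20 (chr9:24527648-24578746, minus strand, ENSMUSG00000031965.7), a cardiac activator, had a promoter peak in all 9 libraries and few distal peaks, with 0, 2 and 4 in Tbx1-Cre Ctrl, 1, 0 and 0 in cKO and 1 in each Mesp1-Cre Ctrl library. Its promoter region was 657, 797 and 756 bp wide in Tbx1-Cre Ctrl, 689, 548 and 596 bp in cKO and 744, 729 and 755 bp in Mesp1-Cre Ctrl. Distal counts overlapped between all groups, though without Ctrl replicate 1 every cKO and every Mesp1-Cre value was below the rest of Ctrl. The promoter widths of cKO overlapped with Tbx1-Cre Ctrl but lay below those of Mesp1-Cre Ctrl, as they also did at the Tbx3 promoter. The share of all promoters narrower in every cKO than in every Mesp1-Cre Ctrl library was not counted.

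In the subfamily of Tbx2 to Tbx5, Tbx3 was the member whose distal peaks separated cKO from the Mesp1-Cre line. Tbx3 (chr5:120120678-120134733, plus strand, ENSMUSG00000018604.11) had 4, 0 and 2 distal peaks in Tbx1-Cre Ctrl, 0 in each cKO library and 2 in each Mesp1-Cre Ctrl library. It was the 1 member of 9 below in every cKO against every Mesp1-Cre Ctrl library, compared with 6.88% of 16707 genes (3.62% with equal numbers of widest peaks, where Tbx3 was again the 1 member), but cKO and Tbx1-Cre Ctrl overlapped at 0. One of its regions, chr5:120101340-120102164, was 677, 633 and 753 bp wide in Mesp1-Cre Ctrl, 651 and 204 bp in Ctrl replicates 1 and 3, and held no peak in Ctrl replicate 2 or cKO. The Tbx3 promoter was open in every library, at 916, 729 and 824 bp in Tbx1-Cre Ctrl, 697, 649 and 627 bp in cKO and 856, 802 and 750 bp in Mesp1-Cre Ctrl.

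Tbx2 (chr11:85646053-85655450, plus strand, ENSMUSG00000000093.6) and Tbx4 (chr11:85699924-85729599, plus strand, ENSMUSG00000000094.6) are neighbours whose windows overlap by 55527 bp, so some peaks belong to both. Tbx2 had 7, 2 and 3 distal peaks in Tbx1-Cre Ctrl, 3, 3 and 0 in cKO and 5, 3 and 3 in Mesp1-Cre Ctrl. Tbx4 had 9, 5 and 5, then 4, 3 and 0, then 9, 4 and 5, so its cKO values lay below those of Ctrl while Mesp1-Cre Ctrl overlapped with it. The widest region past the end of Tbx4, chr11:85730688-85732131, was 697 and 447 bp wide in Ctrl replicates 1 and 3 and 733, 522 and 1375 bp in Mesp1-Cre Ctrl, with no peak in Ctrl replicate 2 or cKO. At the promoters, Tbx2 had 1 peak in every library but cKO replicate 3, and Tbx4 had 1 peak in Ctrl replicate 1 and in cKO replicate 1 and none elsewhere.

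Tbx5 (chr5:120284672-120335227, plus strand, ENSMUSG00000018263.8), which marks the posterior heart field and the forelimb, was nearly without peaks. Its promoter had none in any library, and its window of 151 kb held 1 distal peak in Ctrl replicate 1 and 2 in Mesp1-Cre Ctrl replicate 1, the longest list of each group. An empty promoter was common, with no own-promoter peak in any library at 33.4% of all genes. No distal peak in any library was found at 17.8% of all genes. Its neighbour Tbx3 lies on the same chromosome, and their windows do not overlap.

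Tbx6 (chr7:133924997-133929074, plus strand, ENSMUSG00000030699.10) sits among 8 other coding genes, Mapk3 among them, and most peaks of its window were at their promoters. Its own promoter had 1 peak in each Tbx1-Cre Ctrl and each Mesp1-Cre Ctrl library and none in cKO. These peaks were narrow, at 434, 214 and 205 bp in Tbx1-Cre Ctrl and 225, 280 and 241 bp in Mesp1-Cre Ctrl. With Tbx1, it made 2 of the 8 members with a promoter peak in any Tbx1-Cre library that had it in every Ctrl and in none of the cKO libraries, compared with 2.11% of 14725 genes, and with equal numbers of widest peaks 0 members did (0.266% of genes). A promoter peak in all 3 Tbx1-Cre Ctrl and no Mesp1-Cre Ctrl library was found at 0 of 8 members (0.686% of genes, and 0.214% with equal numbers of widest peaks, again 0 members). Distal peaks numbered 4, 2 and 1 in Tbx1-Cre Ctrl, 1, 0 and 0 in cKO and 3, 1 and 1 in Mesp1-Cre Ctrl. One intergenic region, chr7:133898530-133898881, had peaks of 306, 342 and 250 bp in Tbx1-Cre Ctrl, none in cKO, and 290 and 199 bp in Mesp1-Cre Ctrl replicates 1 and 3. It lay 4234 bp from the start of Mapk3, a kinase gene, and cannot be given to Tbx6 rather than to its neighbours by position.

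**Figure D4:**
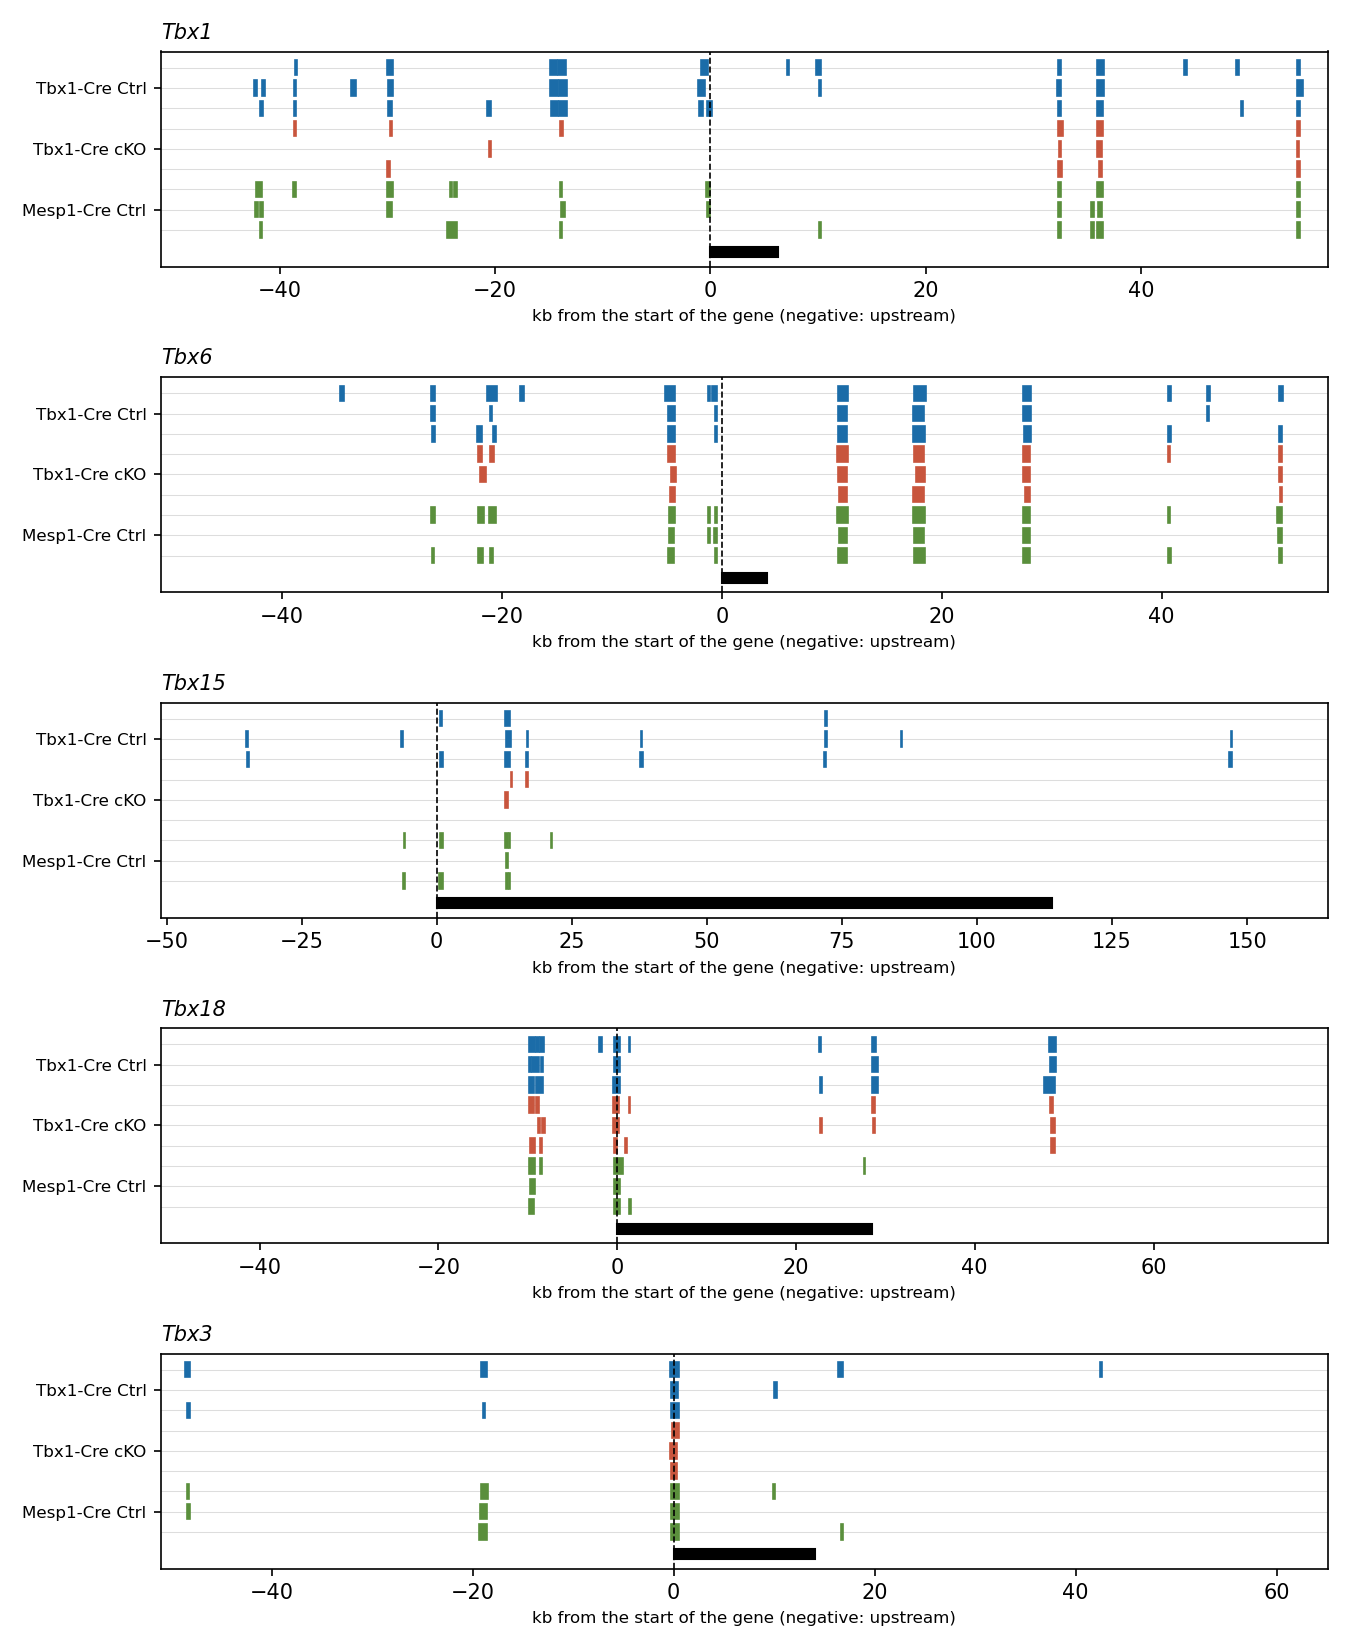
Peaks of each library around Tbx1, Tbx6, Tbx15, Tbx18 and Tbx3, plotted in kb from the 5′-most end of the gene with upstream negative. Each row of a panel is 1 library, coloured by group, and the black bar is the gene body. The Tbx1 panel shows the Ctrl peaks about 14.1 kb upstream, of which the farther is absent from the other groups. The Tbx18 panel shows the downstream regions without Mesp1-Cre Ctrl peaks.

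Region by region, presence was mostly irregular between replicates. Of the 57 distal regions, 25 lay in introns, 27 between genes and 5 over exons. Only 4 had a peak in all 9 libraries (5.82% of all distal regions) and 15 were in 1 library only (38.1%). Tbx1-Cre Ctrl had 13 regions with a peak in each of its 3 libraries, cKO had 5 and Mesp1-Cre Ctrl had 10. Genome-wide, 15391 of 54275 distal regions had a peak in each Tbx1-Cre Ctrl library. The matching counts for cKO and Mesp1-Cre Ctrl are not given here, and the lists differ in length, so these numbers are description only. There were 30 regions with a peak in at least 1 Ctrl library and none in cKO, and 0 the other way round, out of 49 present in either group, compared with 62.6% and 3.12% of 46418 regions genome-wide. None was held by each cKO library while missing from Ctrl (0.0151%). Only 2 were in every Ctrl library and absent from cKO, the Tbx15 and Tbx6 regions above, compared with 9.3% of the 46418, and 7 were so without Ctrl replicate 1 or without Ctrl replicate 3. These counts are of merged regions and leave out the farther Ctrl peak upstream of Tbx1, which was merged with its neighbour. All 3 Ctrl and no Mesp1-Cre Ctrl library held for 3 of the 57, at Tbx15 and Tbx18, compared with 7.13% of 53220, or for 9 without Ctrl replicate 1, and the opposite for 0 (0.96%).

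Of the 8 other T-box genes, 3 had fewer distal peaks in every cKO than in every Ctrl library, compared with 25.6% of all genes. These were T, which specifies the notochord and posterior mesoderm, with 5, 3 and 4 in Ctrl and 2, 1 and 0 in cKO, Eomes, of the early mesendoderm, with 8, 5 and 4 against 2, 1 and 1, and Tbx19, a pituitary factor, with 4, 4 and 5 against 3, 0 and 0. The same 3 genes were also lower in every Mesp1-Cre Ctrl library (11.2% of genes), at 2 in each for T, at 3, 1 and 1 for Eomes and at 3, 2 and 2 for Tbx19. Both comparisons use the same Tbx1-Cre Ctrl libraries. At the promoter, Tbx10 and Tbx19 had no peak in any library.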

How the data were processed

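The authors trimmed reads with cutadapt, aligned them to mm9 with Bowtie2 2.3.4.3, kept uniquely and concordantly mapped pairs, removed duplicates and mitochondrial reads and called peaks in each library with MACS2 2.1.2.179, versions as in the submitters' processing notes. They deposited 1 list per library of chromosome, start and end, with no score, so the measurement is the presence and width of a peak. A longer list can follow from deeper sequencing. Lists of the Tbx1-Cre groups hold no peak under 200 bp and those of Mesp1-Cre Ctrl none under 199 bp. From these lists, peaks were placed on the GENCODE mouse annotation of the same build and counted with Python 3 scripts (numpy, scipy), tested on simulated data with planted peaks. Groups were compared with the exact two-sided permutation test over libraries. Genome-wide shares count all genes or regions with a peak in either group. The named genes were all 9 members. Named regions were the widest distal ones of each member in all 3 Ctrl and no cKO library, in all 9 libraries, or in all 3 Mesp1-Cre and no Ctrl library. The other regions named were chosen after their values were seen. The members and lists were chosen with earlier results of these data known. Replicates are libraries, which the labels do not tie to separate litters, and the study's text is not uniform on their number, so p-values measure only the spread between these libraries. The number of peaks in Mesp1-Cre Ctrl replicate 1 is not among those the study lists. No 2 lists were identical. Alternatives are named in the closing section.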

Additional observations from a re-analysis of the deposited data

How the results depend on the processing

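Fewer distal T-box peaks in cKO than in Ctrl kept their direction in 14 of 15 alternatives, and in Mesp1-Cre Ctrl likewise. With an equal number of widest peaks both differences became 0.333, those of own-promoter peaks became -0.333 in cKO and 1 in Mesp1-Cre Ctrl, the number of genes lower in every cKO library 0, and the regions absent from cKO, absent from Mesp1-Cre Ctrl and gained there 1 each. Per 10000 peaks of the list, own-promoter peaks were higher by 0.468 in cKO and by 0.710 in Mesp1-Cre Ctrl and 0 genes were lower in every cKO library. Beyond 2.5 kb the own-promoter difference of Mesp1-Cre Ctrl was 0 and the genes lower in cKO were Tbx1 and Tbx6. With 100 kb windows Tbx1 in place of Tbx18 was lower in every Mesp1-Cre Ctrl library. Genes lower in every cKO library numbered 1 with 10 kb windows (Tbx4), 5 with 100 kb windows (Tbx1, Tbx2, Tbx3, Tbx15 and Tbx18) and 1 with the widest 75% of peaks (Tbx1), where regions absent from cKO numbered 1, 6 and 1, and 6 when peaks had to cover 50% of a region. The equal-number alternative removes the difference in list length by construction and drops the narrower peaks of the longer lists. It therefore tests no cause, and the cause of these differences was not tested.

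Leaving out 1 library at a time gave distal differences of -24 to -17.8 for cKO and -16 to -8.17 for Mesp1-Cre Ctrl, and own-promoter differences of -3.67 to -2.17 and -1.17 to 0.333. Genes lower in every cKO library ranged from 2 to 4 (4 without Ctrl replicate 1 or cKO replicate 1), those lower in Mesp1-Cre Ctrl from 1 to 3 (3 without Ctrl replicate 1), regions absent from cKO from 2 to 7, regions absent from Mesp1-Cre Ctrl from 3 to 9 and regions gained there from 0 to 3. The highest values for regions came without Ctrl replicate 1 (7 and 9), Ctrl replicate 3 (7) and Mesp1-Cre Ctrl replicate 2 (3).

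The labels repeat the replicate numbers 1 to 3 in each group. Deviations from the group means correlated at -0.025 to 0.029 between libraries of different groups. Libraries of the same number correlated at -0.0039 to 0.0070 between Tbx1-Cre Ctrl and cKO and at 0.011 to 0.029 between Tbx1-Cre Ctrl and Mesp1-Cre Ctrl. Correlations of peak presence this near 0 cannot decide whether the numbers pair the samples. With the replicate block the distal differences were -21.3 for cKO and -11.7 for Mesp1-Cre Ctrl, and the own-promoter differences -3 and -0.333, where 0.25 is the smallest p of the sign-flip test. Peak lists without read counts limit every statement to presence and width.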
